A study of Mus musculus with 2 samples.

Results

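Chemokine receptors and related receptors for oxysterols guide dendritic cells (DCs) through the spleen, and 9 of them were followed here at the level of transcripts in DCs sorted from mouse spleen. The 9 genes were fixed as a list of names, Xcr1, Cxcr3, Ccr9, Ccr2, Cx3cr1, Ccr7, Cxcr4, Ccr6 and Gpr183, and all 9 were found among the 17751 genes of the deposited count tables. Gpr183 is not a chemokine receptor. It binds oxysterols and was kept on the list for its part in placing DCs within the tissue.

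The study compared WT C57BL/6 mice with Batf3-/- mice, which lack the transcription factor needed for the conventional DC 1 (cDC1) lineage. Both groups were female and 8 weeks old, and the labels name no treatment. Spleen cells of several mice per genotype were pooled, depleted of T and B cells, sorted as live MHCII+CD11c+ cells, and processed as 1 droplet library per genotype by CITE-seq, which counts transcripts and antibody tags in the same cell. The WT mice came from a supplier and the Batf3-/- mice were bred in house from purchased stock, so that genotype, source of the mice, library and pool cannot be told apart, and no test between genotypes was possible.

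The WT library held 12224 cells and 122530055 unique molecular identifiers (UMIs), and the Batf3-/- library held 12119 cells and 114517073 UMIs. The median cell had 8374.5 UMIs in WT and 8516 in Batf3-/-. Levels are given as counts per 1e+06 UMIs of the same group of cells (CPM), with 95% intervals from the exact Poisson distribution. Shares of cells have exact Clopper-Pearson intervals. All intervals cover counting error only and not the spread between mice. Transcripts of the deleted gene were present at 206 CPM (25257 UMIs) in WT and 2.49 CPM (285 UMIs) in Batf3-/-, as the labels of the libraries imply. The 2 libraries had 56 cell barcodes in common.

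The cells carried the study's own cluster numbers, 20 in all, written C0 to C19, of which 17 had at least 30 cells in each library. Orders of levels, and the highest and lowest clusters named, cover these 17. The numbers were made from the same transcripts, so that a receptor's level in a cluster is a description and not an independent result. For orientation, the cDC1 markers Clec9a, Cadm1, Naaa, Irf8 and Wdfy4 summed to 4165 CPM in C4 and 3656 CPM in C6 of WT cells. The markers of mature DCs summed to 3447 CPM in C12 of WT cells, those of plasmacytoid DCs to 7056 CPM in C14, and those of monocytes to 12823 CPM in C15. The cDC1 markers also summed to 3270 CPM in WT C14, and to 718 CPM in WT C12, which the paper annotates as mature cDC1s. C13 held T and natural killer (NK) markers, at 921 and 711 CPM, so that the sorted cells were not DCs alone. C4 had 2202 WT and 31 Batf3-/- cells and C12 had 394 and 31, whereas C6, a cycling cluster, had 797 WT and 727 Batf3-/- cells. Cells of C9 were shallow, with a median of 1478.5 UMIs against 8454 over all cells. The paper describes mitochondrial genes as prominent there.

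Chemokine receptors couple to inhibitory G proteins and steer a cell along a gradient of its ligand. In the spleen, Ccr7 and its ligands draw DCs into the T cell zone, Gpr183 positions DCs at the edge of the white pulp, and Xcr1, the receptor for Xcl1, is the textbook marker of cDC1s. Ccr2, Cx3cr1 and Cxcr4 are better known from the egress and residence of myeloid cells in marrow, blood and tissue, and Ccr6 and Ccr9 from homing to mucosal sites.

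The genes lie apart in the mouse genome (GRCm38, GENCODE annotation), although Xcr1, Ccr9 and Ccr2 sit close together on chromosome 9, at 123852315 to 123862029 on the minus strand, 123678439 to 123784330 on the plus strand and 124101950 to 124113557 on the plus strand. Cx3cr1 is on the same chromosome at 119901616 to 120069879 (minus), Ccr7 on chromosome 11 at 99144196 to 99155077 (minus), Gpr183 on chromosome 14 at 121952551 to 121965195 (minus) inside the gene Ubac2 of the other strand, Ccr6 on chromosome 17 at 8236043 to 8257141 (plus), Cxcr3 on chromosome X at 101731535 to 101734269 (minus) and Cxcr4 on chromosome 1 at 128588199 to 128592293 (minus). Batf3 binds DNA with Jun and Irf proteins, so that the start sites of Xcr1, Ccr2 and Gpr183 are shown, which had the largest ratios in C6 among the receptors that met the minimum level set out with the results of C6. The windows run from 250 bases before to 50 bases after the RefSeq start (GRCm38.p6), written 5′ to 3′ on the strand of the gene, at chr9:123861980-123862279 (minus) for Xcr1, chr9:124101933-124102232 (plus) for Ccr2 and chr14:121965144-121965443 (minus) for Gpr183. Capitals mark a match, on either strand, to the letters TTTC, any 4 bases and TGA, an Irf site spaced next to the first part of an AP-1 site.
Xcr1: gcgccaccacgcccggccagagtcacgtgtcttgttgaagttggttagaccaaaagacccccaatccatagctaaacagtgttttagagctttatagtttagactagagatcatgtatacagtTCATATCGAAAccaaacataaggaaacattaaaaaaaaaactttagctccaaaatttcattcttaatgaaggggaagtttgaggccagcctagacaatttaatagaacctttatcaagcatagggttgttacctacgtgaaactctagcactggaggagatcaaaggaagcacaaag
Ccr2: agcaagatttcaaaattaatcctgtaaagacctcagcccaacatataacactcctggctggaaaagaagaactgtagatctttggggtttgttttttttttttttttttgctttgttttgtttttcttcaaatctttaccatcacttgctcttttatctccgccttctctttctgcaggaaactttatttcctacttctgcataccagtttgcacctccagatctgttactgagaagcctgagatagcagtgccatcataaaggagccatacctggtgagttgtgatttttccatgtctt
Gpr183: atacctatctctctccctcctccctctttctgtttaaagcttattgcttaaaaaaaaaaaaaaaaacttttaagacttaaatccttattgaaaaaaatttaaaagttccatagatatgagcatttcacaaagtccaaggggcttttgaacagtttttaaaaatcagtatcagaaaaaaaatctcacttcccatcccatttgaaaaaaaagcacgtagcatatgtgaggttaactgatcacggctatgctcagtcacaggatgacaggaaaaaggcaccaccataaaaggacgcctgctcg
Of the 9 windows that RefSeq gave for 8 of the receptors, 3 held these letters, the Xcr1 window and both windows of Ccr6, and 4.56% of 32851 mouse promoter windows of the same length did. The full AP-1 letters TGANTCA were in none of the 9 windows and in 7.81% of all windows, and the longer form TTTC, any 4 bases and TGANTCA, which contains both, was in none of the 9 and in 0.119% of all. Of the other letters searched on both strands, TTTC with TTTC after any 2 bases (3.44% of all windows) and GGG with TTTCC after any 2 bases (1.63%) were in none of the 9, and GAGGAAGT (3.2%) was in that of Cxcr3. A match describes letters, not binding.

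Xcr1, which binds the chemokine Xcl1, was the receptor most tied to the cDC1 clusters. In WT cells C4 had 509 CPM (501.5 to 516.7) and C6 had 397 CPM (387.5 to 407.3), and C4 alone held 71.0% of all Xcr1 UMIs of the library. The smaller clusters C17 and C18, which were almost absent from Batf3-/- cells, had 368 and 242 CPM in WT. At the other end of the order, C0, C1 and C3 had 4.54, 3.42 and 3.24 CPM in WT. When each cell was thinned to 1000 UMIs, 39.4% of C4 and 31.5% of C6 cells of WT had an Xcr1 UMI, against 0.630% of C0 cells. Without thinning the shares were 97.1%, 94.6% and 2.90%, at median depths of 15398.5, 19599 and 6648 UMIs per cell. C0, a cluster that should lack the gene, was used as a reference for low levels. It had 4.54 CPM in WT and 3.47 CPM in Batf3-/- (log2 ratio -0.39, -0.84 to 0.06). Over all cells Xcr1 was at 200.1 and 9.30 CPM, and Batf3-/- C3 was at 0.857 CPM. What the Xcr1 UMIs of C0 come from was not tested.

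In Batf3-/- cells the 31 cells left in C4 had 259 CPM (215.3 to 309.5) from 122 UMIs. C6 had 45.7 CPM (42.14 to 49.43) from 615 UMIs, compared with 6214 UMIs in WT C6. The ratio in C6 was 8.70-fold in favor of WT, or -3.12 on the log2 scale of Batf3-/- over WT (-3.24 to -3.00), and the ratio in C4 was -0.97 (-1.24 to -0.72). The ratio in C4 was past 2-fold with the mean of per-cell CPM, after thinning and without the highest doublet scores. After thinning, 19.4% of Batf3-/- C4 cells and 5.36% of Batf3-/- C6 cells had an Xcr1 UMI, against 0.474% of Batf3-/- C0 cells, and unthinned the shares were 80.6%, 34.4% and 1.99%. The level in Batf3-/- C6 was still above that in Batf3-/- C0, at 3.47 CPM, and C6 held 57.7% of all Xcr1 UMIs left in the Batf3-/- library.

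**Figure D1:**
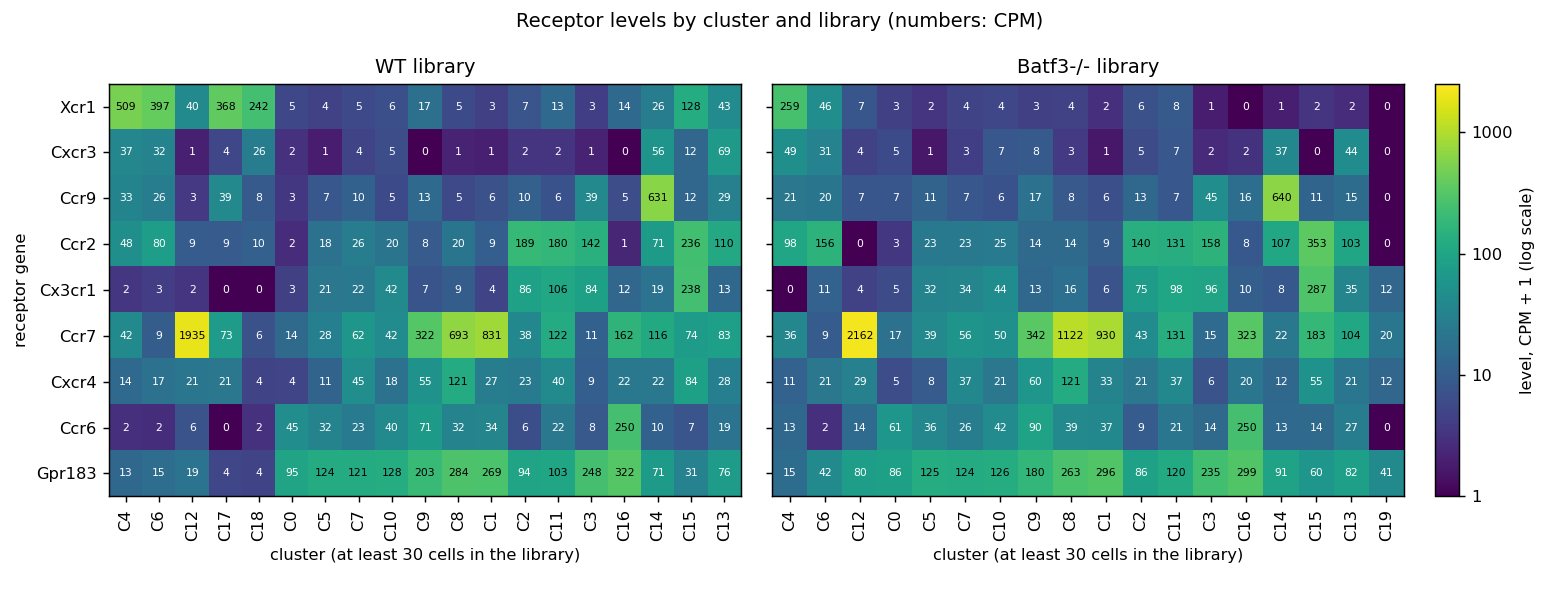
The level of each of the 9 receptors (CPM, log scale) in each cluster, with WT and Batf3-/- cells shown separately, for clusters with at least 30 cells in that library. The leading clusters differ between receptors, such as C14 for Ccr9 (631 and 640 CPM). The levels of both genotypes are close in most clusters, with Xcr1 in C6 (397 and 45.7 CPM) far apart.

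Both genotypes had many cells in C6. A receptor counted as past 2-fold only where the mean of its 2 levels reached 10 CPM and 20 or more of its UMIs had been counted. In C6, 6 of the 9 receptors met this, of which Gpr183 was past 2-fold higher and Xcr1 past 2-fold lower in Batf3-/-. Of 7045 genes that met it in C6, 4.12% were past 2-fold in either direction, 1.97% higher and 2.14% lower. The median log2 ratio was 0.11 over the 6 receptors and 0.01 over the 7045 genes.

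Ccr2, the receptor for Ccl2 on monocytes and some DCs, was at 80.3 CPM (1256 UMIs) in WT C6 and 156 CPM (2097 UMIs) in Batf3-/- C6. The log2 ratio was 0.96 (0.85 to 1.06), just inside 2-fold and above that of 97.8% of the genes in C6. Gpr183 was at 15.2 CPM (238 UMIs) in WT and 41.7 CPM (562 UMIs) in Batf3-/-, a log2 ratio of 1.46 (1.23 to 1.68) that exceeded 99.1% of the genes. Cxcr3 showed no such gap, with 32.5 CPM in WT and 31.1 CPM in Batf3-/- and a log2 ratio of -0.06 (-0.25 to 0.13). Ccr9 was at 26.0 and 20.1 CPM (-0.37, -0.60 to -0.15) and Cxcr4 at 17.4 and 21.02 CPM (0.27, 0.03 to 0.52). Ccr6, Ccr7 and Cx3cr1 were below the minimum in C6. Of these, Cx3cr1 had 49 UMIs in WT and 143 in Batf3-/-, or 3.13 and 10.6 CPM, with a log2 ratio of 1.76 (1.28 to 2.26) at these low levels, while Ccr6 had 28 and 26 UMIs and Ccr7 143 and 117.

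The same gaps were present in the number of UMIs per cell. Of the 797 WT cells of C6, 5.40% had no Xcr1 UMI and 68.8% had 5 or more. Of the 727 Batf3-/- cells, 65.6% had none and 4.81% (35 cells) had 5 or more, and these 35 cells held 36.9% of the Xcr1 UMIs of the cluster. For Ccr2, 56.2% of WT and 28.3% of Batf3-/- cells of C6 had no UMI, and 11.3% and 22.6% had 5 or more. For Gpr183, 82.9% of WT and 59.8% of Batf3-/- cells had none. After thinning to 1000 UMIs, the share of C6 cells with Ccr2 was 7.53% in WT and 13.3% in Batf3-/-, and the share with Gpr183 was 1.76% and 4.13%. Ccr2 in C0, which served as background, was at 0.126% and 0.203%. Gpr183 in WT C4, where its level was lowest, was at 1.23% (0.810 to 1.78), and no cluster without Gpr183 was at hand. The part of free RNA in the single UMIs of Gpr183 was not tested.

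**Figure D2:**
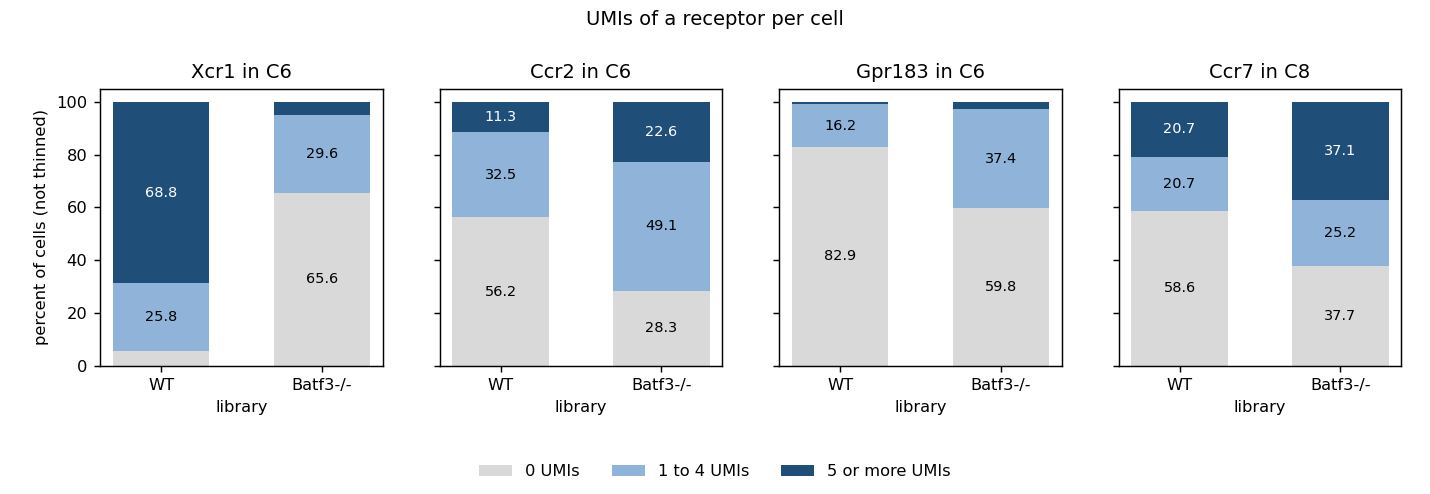
The share of cells (percent) with 0, 1 to 4, or 5 or more UMIs of Xcr1, Ccr2 and Gpr183 in C6 and of Ccr7 in C8, for WT and Batf3-/- cells. In C6 the share of cells without Xcr1 was 5.40% in WT and 65.6% in Batf3-/-, and the shares without Ccr2 (56.2% and 28.3%) and Gpr183 (82.9% and 59.8%) ran the other way.

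The receptors were then paired within the cells of C6. With each cell thinned to 5000 UMIs, Ccr2 was found in 20.9% (17.7 to 24.3) of 608 WT cells with Xcr1 and in 41.4% (34.2 to 49.0) of 181 WT cells without it. In Batf3-/- C6, Ccr2 was found in 38.7% (29.6 to 48.5) of 111 cells with Xcr1 and in 48.0% (44.0 to 52.1) of 612 cells without it, so that the intervals were apart in WT and overlapped in Batf3-/-. In WT cells thinned to 1000 UMIs the shares were 6.37% (3.69 to 10.1) and 8.06% (5.92 to 10.7), and the intervals overlapped. Thinning to 5000 UMIs was drawn anew for each pair, so that the numbers of cells differ. Gpr183 was found in 5.02% of 617 WT cells with Xcr1 and 12.2% of 172 without, and in 12.5% of 112 and 15.9% of 611 Batf3-/- cells. At 5000 UMIs, cells with Xcr1 thus had Ccr2 in a larger share in Batf3-/- than in WT, beyond the counting error. At 1000 UMIs the share was 6.37% of 251 such cells in WT and 6.55% (3.99 to 10.0) of 290 in both libraries. At 5000 UMIs in WT, Gpr183 was in 12.6% (8.34 to 18.1) of cells with Ccr2 and 5.08% (3.45 to 7.17) of cells without. In Batf3-/- the shares were 16.3% (12.5 to 20.6) and 17.1% (13.5 to 21.3). Thinning left out 8 WT and 4 Batf3-/- cells.

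Other transcripts moved with these receptors in C6. All 5 cDC1 markers were past 2-fold lower in Batf3-/-, and their sum was 3656 CPM in WT and 1328 CPM in Batf3-/-. Clec9a was at 203 and 82.1 CPM, Cadm1 at 151 and 12.3, Naaa at 941 and 98.8, Irf8 at 1895 and 941, and Wdfy4 at 465 and 194 CPM, so that no cDC1 marker was at 0. Of the 4 cDC2 markers, 3 met the minimum and all 3 were past 2-fold higher, with Cd209a at 14.9 and 139 CPM, Itgam at 2.69 and 24.6, and Sirpa at 10.7 and 24.2, and the list summed to 30.7 and 191 CPM. The proliferation gene Mki67 was at 245 and 242 CPM, whereas 98.4% of WT and 74.0% of Batf3-/- cells had been assigned to the S or G2M phase. Within the cells of those phases, the log2 ratio of Xcr1 was -3.26, that of Ccr2 1.00 and that of Gpr183 1.40. The part of the makeup of C6 in the receptor ratios was not tested.

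In the 31 cells of Batf3-/- C4, 1 of the 7 receptors that met the minimum was past 2-fold, against 8.42% of all genes in that cluster. This was Ccr2, at 47.8 CPM (1633 UMIs) in WT and 97.7 CPM (46 UMIs) in Batf3-/-, with a log2 ratio of 1.03 (0.58 to 1.45), and 0.93, inside 2-fold, with the mean of per-cell CPM. The direction was that of C6, but 4 of the 31 cells held 84.8% of the 46 UMIs. Gpr183, at 13.1 CPM in WT C4 and 14.9 CPM in Batf3-/- C4, had a wide interval there (-1.14 to 1.24 on the log2 scale), since 7 UMIs were counted in Batf3-/-.

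Cxcr3, the receptor for the interferon-induced ligands Cxcl9 and Cxcl10, shared C4 and C6 with Xcr1. It was at 37.0 CPM in WT C4, which held 59.4% of the Cxcr3 UMIs of that library, and at 48.9 CPM from 23 UMIs in Batf3-/- C4. In WT C12, annotated by the paper as mature cDC1s, Cxcr3 was at 1.01 CPM, against 39.8 CPM for Xcr1. In WT, Cxcr3 was highest in C13 at 69.1 CPM, followed by C14 at 55.8 CPM. In Batf3-/- C4 came first, from 23 UMIs in 31 cells, before C13 at 44.3 CPM (51 UMIs) and C14 at 37.4 CPM. Whether C4 and C13 were apart beyond counting error in Batf3-/- was not tested. With both libraries summed, C13 was first, and it could not be told apart from C14 beyond counting error. Within C13, the cells that the study's automated labels call NKT had 369 CPM. C1 and C5 had 1.01 and 0.854 CPM in WT. No Cxcr3 UMI was counted in WT C9 or WT C16, which held 595417 and 739388 UMIs in all, against 4971606 in WT C1. Batf3-/- C9 had 7 Cxcr3 UMIs (8.11 CPM). After thinning, 4.13% of WT C4 cells and 3.01% of WT C6 cells had a Cxcr3 UMI, and none of 720 WT cells of C1 did, where 3 cells would be 0.417%. Unthinned, 38.6% of WT C4, 41.8% of WT C6 and 0.693% of WT C1 cells had it.

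Ccr9, a receptor for Ccl25 known from gut homing and from plasmacytoid DCs, was highest by far in C14. It was at 631 CPM in WT and 640 CPM in Batf3-/-, and the log2 ratio was 0.02 (-0.12 to 0.16). After thinning, 49.4% of WT and 40.6% of Batf3-/- cells of C14 had a Ccr9 UMI, and 94.8% and 98.0% had one unthinned. The next cluster was C3 with 38.9 and 45.3 CPM, followed by C4 with 33.3 and 21.2 CPM. C0 and C12 were lowest, at 2.52 and 2.70 CPM in WT. The exons of Ccr9 overlap those of Slc6a20a on the other strand and of the noncoding gene Gm17200 on the same strand, both of which are in the count tables, so that reads shared with Gm17200 may not have been counted for Ccr9.

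**Figure D3:**
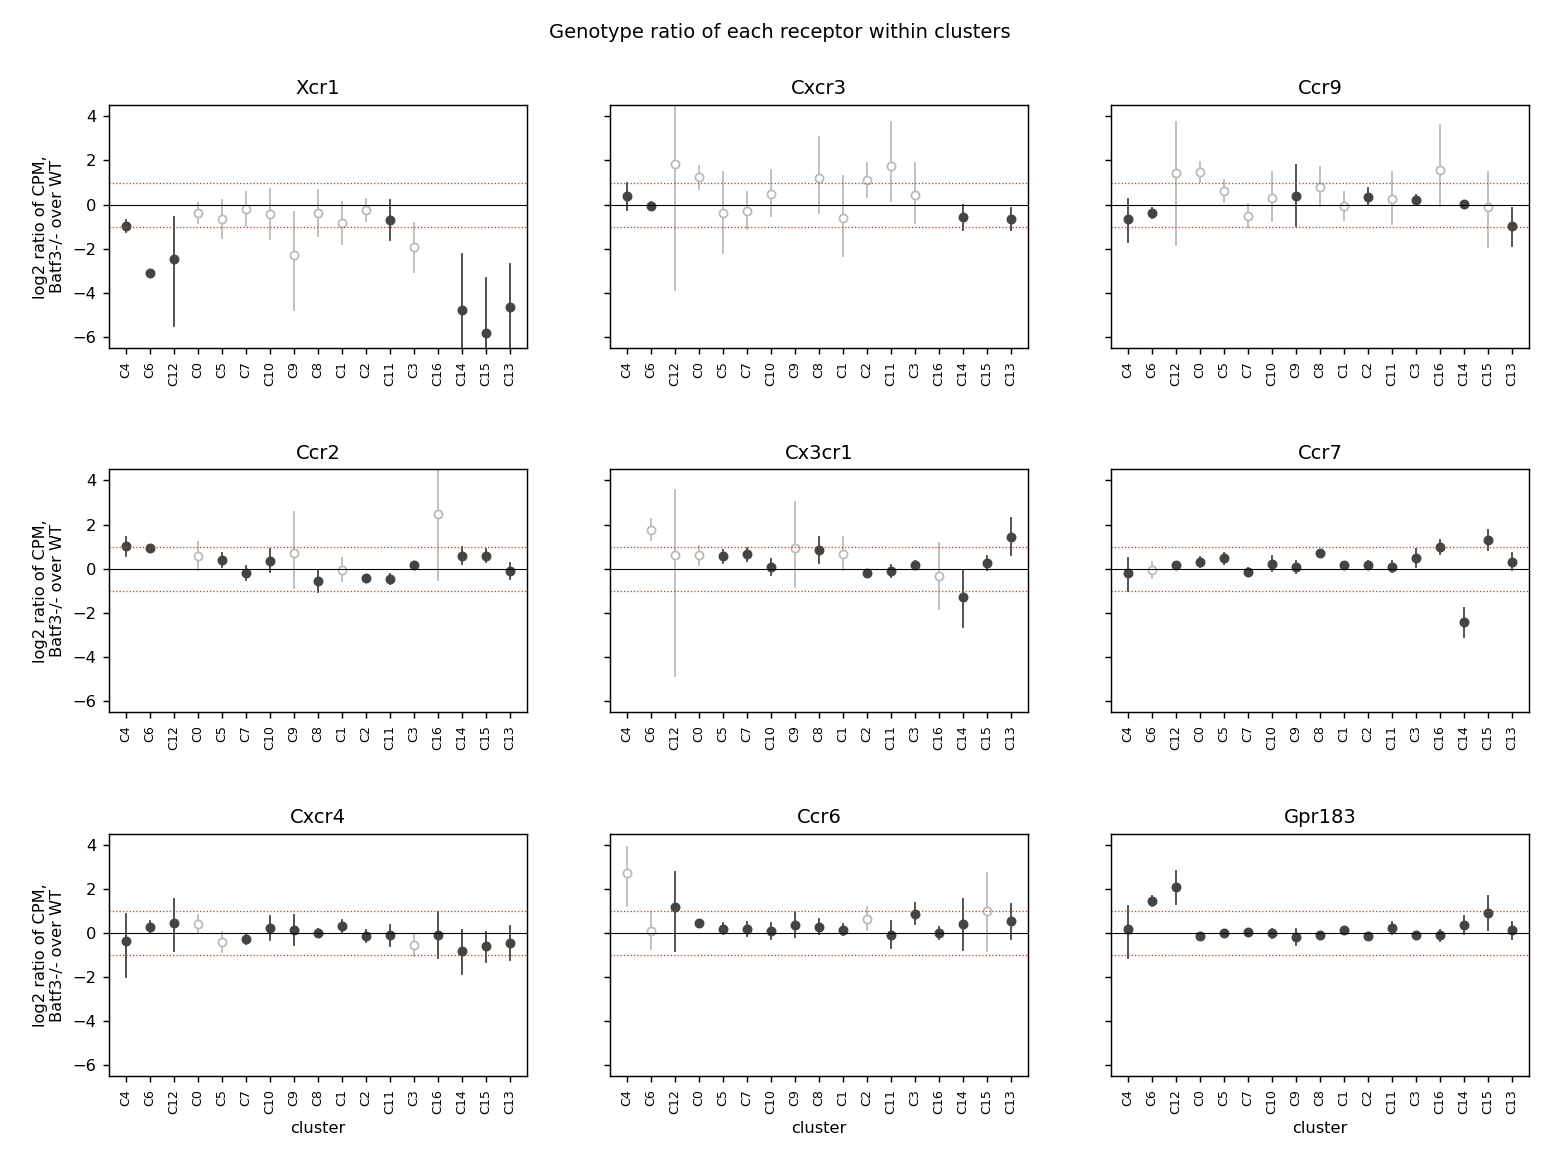
The log2 ratio of Batf3-/- over WT for each receptor in each cluster with at least 30 cells in both libraries, with 95% intervals from the binomial split of the UMIs. Filled points met the minimum of 10 CPM and 20 UMIs, open grey points did not, dotted lines mark 2-fold, intervals are cut at the axis limits, and ratios with 0 UMIs on either side are not drawn. Xcr1 in C6 (-3.12) lies far from 0, while Ccr9 in C14 (0.02) and Cxcr4 in C8 (0.00) lie on it.

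Ccr2 outside the cDC1 clusters was highest in C15, at 236 CPM in WT and 353 in Batf3-/-. C2, C11 and C3 followed, with 189 and 140 CPM, 180 and 131 CPM, and 142 and 158 CPM. C2 was above C3 in WT and below it in Batf3-/-, in both beyond counting error, and C2 and C11 were not apart in either library. C0 had 1.70 and 2.51 CPM. C2 and C11 were mixed. The study's automated labels, made by SingleR from the same transcripts, split C2 into 1592 cells called DC and 864 called Monocytes, and Ccr2 was at 82.5 CPM (78.1 to 87.1) in the former and 311 CPM (298.4 to 323.4) in the latter. Among WT C2 cells, 115 with 5 or more Ccr2 UMIs held 59.6% of them, and their monocyte markers summed to 8750 CPM against 2472 CPM in the rest of the cluster. In C11 the cells called DC had 58.9 CPM, those called Monocytes 415 CPM and those called Macrophages 232 CPM. In C13 the order was NK with 260 CPM, NKT with 193, DC with 113, ILC with 45.7 and T cells with 6.33 CPM.

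Cx3cr1, the receptor for fractalkine (Cx3cl1) and a marker of patrolling monocytes and some cDC2s, followed a similar order. It was highest in C15 with 238 CPM in WT and 287 in Batf3-/-, then C11 with 106 and 98.1, C3 with 84.4 and 95.9, and C2 with 86.0 and 75.2 CPM. The lowest clusters in WT were C12 with 2.36 CPM and C4, where WT cells had 2.46 CPM and Batf3-/- cells had no UMI, where 3 UMIs would be 6.37 CPM. Cells of C2 called Monocytes had 132 CPM and those called DC had 52.9 CPM. In C11 the cells called Macrophages were highest at 381 CPM, followed by Monocytes at 210 CPM and DC at 36.7 CPM, an order unlike that of Ccr2. The exons of Cx3cr1 overlap those of Gm33858 on the other strand.

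In C3 of Batf3-/-, after thinning, Cx3cr1 was found in 17.4% of 190 cells with Ccr2 and 7.18% of 1351 cells without. Gpr183 was found in 29.5% and 17.8% of the same cells, and Ccr9 in 9.47% and 2.66%. In WT C3, Gpr183 was found in 21.1% (12.3 to 32.4) of 71 cells with Ccr2 and 18.01% (15.1 to 21.2) of 633 without, so that the intervals overlapped there.

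**Figure D4:**
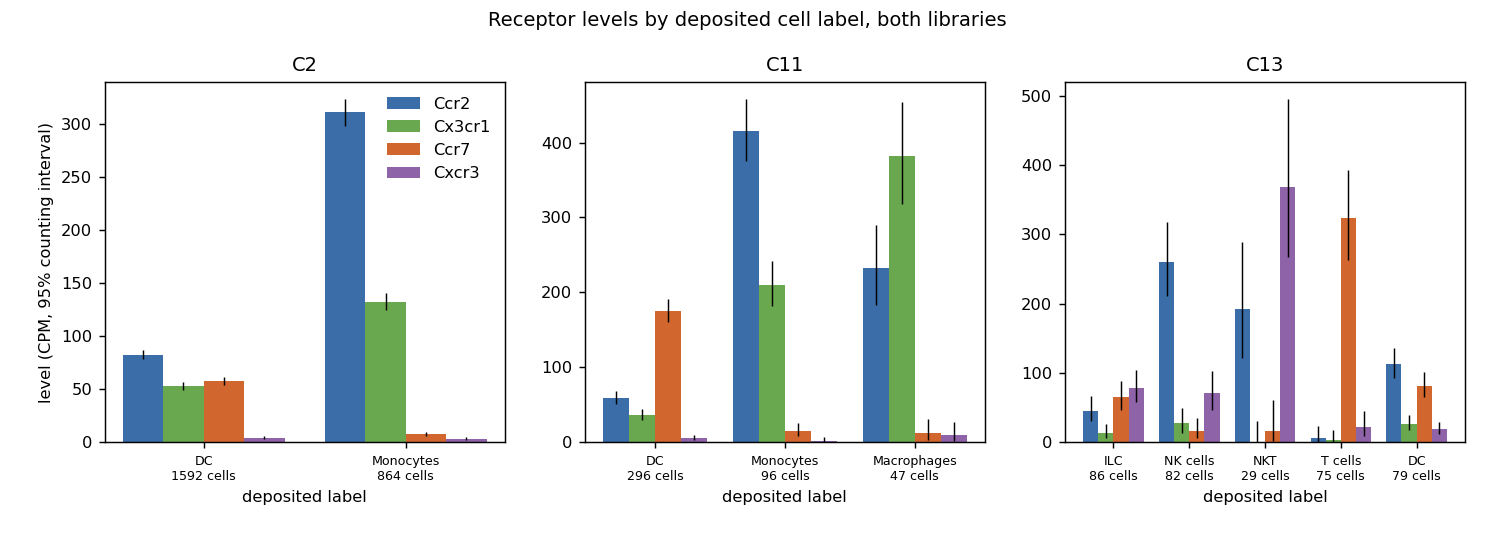
Levels of Ccr2, Cx3cr1, Ccr7 and Cxcr3 (CPM) in the cells of C2, C11 and C13, divided by the study's automated cell type labels. Both genotypes are summed, and bars give the 95% Poisson interval. Ccr2 in C2 was 82.5 CPM in cells called DC and 311 CPM in cells called Monocytes, whereas Ccr7 was 57.3 and 7.48 CPM in the same cells.

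Ccr7, which takes maturing DCs into the T cell zone, was highest in C12, with 1935 CPM in WT and 2162 CPM in the 31 Batf3-/- cells. C1 had 831 and 930 CPM and C8 had 693 and 1122 CPM, so that C1 was above C8 in WT and below it in Batf3-/-, in both beyond counting error. After thinning, 72.3% and 74.2% of C12 cells had a Ccr7 UMI, as did 51.4% and 52.4% of C1 cells and 23.7% and 37.7% of C8 cells, against 0.753% and 0.550% in C6. In C2 the cells called DC had 57.3 CPM and those called Monocytes 7.48 CPM, and in C11 the values were 175 and 15.5 CPM, the reverse of Ccr2.

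C8 was a mixture with respect to Ccr7. In WT 58.6% of its 531 cells had no Ccr7 UMI and 20.7% had 5 or more, and in Batf3-/- 37.7% of 469 cells had none and 37.1% had 5 or more. The log2 ratio was 0.70 (0.63 to 0.76), inside 2-fold, where 0.734% of genes in C8 were past it. Cells of C8 with 5 or more Ccr7 UMIs had mature DC markers at 2865 CPM in WT and 2816 CPM in Batf3-/-, against 1401 and 1251 CPM in the other cells of the cluster. Over the whole of C8, the 3 mature DC markers that met the minimum had a median log2 ratio of 0.70, against -0.02 over all genes, while the 4 markers of the list summed to 1700.2 CPM in WT and 1835 CPM in Batf3-/-, and their part in the Ccr7 ratio was not tested. C16 had 162 CPM of Ccr7 in WT and 323 CPM in Batf3-/- (0.99, 0.68 to 1.31), from 120 and 301 UMIs in 58 and 68 cells, and 8 WT and 14 Batf3-/- cells held 91.7% and 94.7% of them.

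Cxcr4, the receptor for Cxcl12 that retains cells in the marrow, was highest in C8, with 121 CPM in both genotypes and a log2 ratio of 0.00 (-0.18 to 0.18). Of the cells of C8, 10.4% in WT and 12.2% in Batf3-/- had a Cxcr4 UMI after thinning, against 0.535% and 0.406% in C0. C15 had 83.7 and 55.0 CPM, the shallow C9 had 55.4 and 60.2 from 33 and 52 UMIs, and C0 was lowest with 4.08 and 5.44 CPM. Cxcr4 and Ccr7 thus had C8 in common among their leading clusters, but C12, where Ccr7 was highest, had 20.9 CPM of Cxcr4 in WT and 28.9 in Batf3-/-.

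Ccr6, the receptor for Ccl20, was highest in C16, a cluster of 58 WT and 68 Batf3-/- cells, at 250.2 and 250.0 CPM. The shallow cells of C9 had 70.5 and 90.3 CPM, from 42 and 78 UMIs. C0 had 44.7 and 60.6 CPM, from 976 and 1325 UMIs. The log2 ratio in C0 was 0.44 (0.32 to 0.56), inside 2-fold but above that of 98.8% of the genes in C0, of which 0.31% were past 2-fold. C6 and C4 were lowest in WT with 1.79 and 1.96 CPM, the clusters in which Xcr1 was highest. After thinning, 25.9% of WT and 16.2% of Batf3-/- cells of C16 had a Ccr6 UMI, and 4.85% and 5.82% of C0 cells.

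Gpr183 had the broadest distribution of the 9. C16 had 322 CPM in WT and 299 in Batf3-/-, C8 had 284 and 263, C1 had 269 and 296, and C3 had 248 and 235 CPM. C10, C5 and C7 had between 121 and 128 CPM in both genotypes, and C0 had 94.6 and 85.6. C4, C6 and C12 stood at the bottom in WT, with 13.1, 15.2 and 18.9 CPM. Over the 17 clusters, Gpr183 and Xcr1 ran against each other (Pearson's r of log2 levels -0.88), and Gpr183 and Ccr6 ran together (0.80). Such values describe 17 clusters that come from the same 2 libraries, differ in depth, and were themselves defined by transcripts.

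In all, 13 of the 100 values of a receptor in a cluster that met the minimum were past 2-fold, 6 higher and 7 lower in Batf3-/-, and they fell in C4, C6, C12, C13, C14 and C15. Of the 120960 values of all genes that met it in the 17 clusters, 3.11% were past 2-fold, 1.49% higher and 1.62% lower. With a fold of 1.5, 28 of the 100 values were past it, against 10.5% of all, and with a minimum of 50 CPM, 5 of 46 values were past 2-fold, against 1.08% of all. Of the 13, 5 were values of Xcr1. None of the other 11 clusters with at least 30 cells per library had one. In C12, whose Batf3-/- cells numbered 31, 13.6% of all genes were past 2-fold. There, Gpr183 was at 18.9 CPM (56 UMIs) in WT and 79.5 CPM (22 UMIs) in Batf3-/- (2.08, 1.29 to 2.81), Ccr6 at 6.40 and 14.5 CPM from 19 and 4 UMIs (1.18, -0.84 to 2.76), and Xcr1 at 39.8 and 7.23 CPM from 118 and 2 UMIs (-2.46, -5.52 to -0.57). After thinning the log2 ratio of Xcr1 in C12 was -0.15, from at most 2 Batf3-/- UMIs and without a counting interval. Ccr6 was then not among the values past 2-fold there. Of the 22 Gpr183 UMIs, 2 cells held 50%, and the log2 ratio of Gpr183 was 2.87 with the mean of per-cell CPM. Among the markers in C12, those of B cells summed to 55.3 CPM in WT and 192 CPM in Batf3-/-, those of cDC1s summed to 718 and 774 CPM with 3 of 5 past 2-fold lower (Clec9a, Cadm1 and Naaa), and their part was not tested.

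Xcr1 was also past 2-fold lower in C13, C14 and C15, where 3.18%, 3.47% and 8.04% of genes were past 2-fold. WT C15 had 128 CPM (147 UMIs) and Batf3-/- C15 had 2.29 CPM (1 UMI). In C13 the values were 42.6 CPM (66 UMIs) and 1.74 CPM (2 UMIs), and in C14 26.3 CPM (41 UMIs) and 0.959 CPM (1 UMI). Most of the WT UMIs sat in few cells. In C15, 11 of 145 cells had 5 or more Xcr1 UMIs and held 78.9% of them. These cells had a median of 19455 UMIs, compared with 5864 in the rest, and cDC1 markers at 3715 CPM against 881 CPM. Their monocyte markers summed to 2930 CPM against 15093 CPM. A choice by unthinned UMIs favors deep cells, and in WT C6 the medians were 20575.5 and 16744 UMIs. All 5 cDC1 markers were also past 2-fold lower in Batf3-/- C15, and their part was not tested. In C13, 5 cells held 78.8%, with a median of 19098 UMIs against 4763.5 and cDC1 markers at 4113 against 285 CPM. In C14, 4 cells held 73.2%, and all 4 were among the 5% of cells with the highest doublet score of the library, as were 4 of the 11 in C15 and 3 of the 5 in C13. Without that 5% of cells, an alternative chosen after seeing the data, the log2 ratio of Xcr1 was -5.20 in C15, -4.88 in C13 and -2.79 in C14, against -5.81, -4.62 and -4.78 with all cells, each from 1 or 2 Batf3-/- UMIs. In C14 the level was then under the minimum, so that the value no longer counted as past 2-fold. The same held with the mean of per-cell CPM (-3.60).

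Ccr7 was past 2-fold in opposite directions in C14 and C15. C14 had 116 CPM (181 UMIs) in WT and 22.1 CPM (23 UMIs) in Batf3-/- (-2.39, -3.09 to -1.76), while C15 had 74.1 CPM (85 UMIs) and 183 CPM (80 UMIs) (1.31, 0.85 to 1.76). In WT C14, 9 cells held 89.5% of the Ccr7 UMIs, with mature DC markers at 1412 CPM against 82.1 CPM in the rest, and all 9 were among the 5% with the highest doublet score. Without that 5% of cells, the log2 ratio in C14 was -0.21, and that in C15 was 2.15. In C15, 5 WT cells held 78.8% and 7 Batf3-/- cells held 92.5% of the Ccr7 UMIs. Their mature DC markers were at 2065 CPM in WT and 1848 CPM in Batf3-/-, against 244 and 154 CPM in the rest, and their monocyte markers at 5232 and 3654 CPM, against 13123 and 22235 CPM. Of these cells, 4 of 5 in WT and 4 of 7 in Batf3-/- were among the 5% with the highest doublet score. Cx3cr1 was higher in Batf3-/- C13, at 12.9 CPM (20 UMIs) in WT and 34.7 CPM (40 UMIs) in Batf3-/- (1.43, 0.62 to 2.28), and lower in Batf3-/- C14, at 18.6 CPM (29 UMIs) and 7.67 CPM (8 UMIs) (-1.28, -2.62 to -0.11). In C13, 3 Batf3-/- cells held 40% of the UMIs, and the log2 ratio after thinning was 0.31, inside 2-fold. Other markers moved in C13, where the T markers summed to 921 CPM in WT and 589 CPM in Batf3-/-, the cDC2 markers to 148 and 305 CPM and the mature DC markers to 154 and 326 CPM. The monocyte markers summed to 221 and 286 CPM, and 1 of the 3 that met the minimum, Csf1r, was past 2-fold higher. The part of these markers was not tested. In C14 the log2 ratio of Cx3cr1 was -1.94 with the mean of per-cell CPM, at a level under the minimum, and -0.98 after thinning. Thinning left fewer UMIs in C13 and C14, and the thinned values have no counting interval.

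Summed over all cells, 2 of the 9 receptors were past 2-fold, both lower in Batf3-/-, where 2.08% of 7403 genes were past 2-fold and 1.62% were lower. Xcr1 was at 200.1 CPM in WT and 9.30 CPM in Batf3-/- (-4.43, -4.52 to -4.34), and Cxcr3 at 17.4 and 7.42 CPM (-1.23). Cx3cr1 (19.8 and 37.2 CPM, 0.91), Ccr6 (18.6 and 31.1 CPM, 0.74), Gpr183 (85.1 and 142.5 CPM, 0.74), Ccr7 (136 and 190 CPM, 0.48) and Ccr2 (55.2 and 71.5 CPM, 0.37) were higher in Batf3-/-, inside 2-fold. Cxcr4 was at 20.4 and 21.9 CPM, and Ccr9 at 26.0 and 20.7 CPM.

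The clusters hold different shares of the cells in the 2 libraries. When each cluster was given the same share in both libraries, the log2 ratio of Cxcr3 was 0.15, that of Gpr183 0.08, that of Cx3cr1 0.23 and that of Ccr6 0.42, while that of Xcr1 was still -1.61, from 135 CPM in WT and 44.2 CPM in Batf3-/-. The sign for Cxcr3 thus turned once the clusters were weighted alike, but these values have no counting interval. Equal weights raised the part of Batf3-/- C4, whose 31 cells held 23 Cxcr3 and 122 Xcr1 UMIs. Within C4 the log2 ratio of Cxcr3 was 0.40 (-0.26 to 0.99). C17 and C18 entered with 1 and 2 Batf3-/- cells. In sums over a library, fewer cells of a kind and fewer transcripts per cell cannot be told apart.

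**Figure D5:**
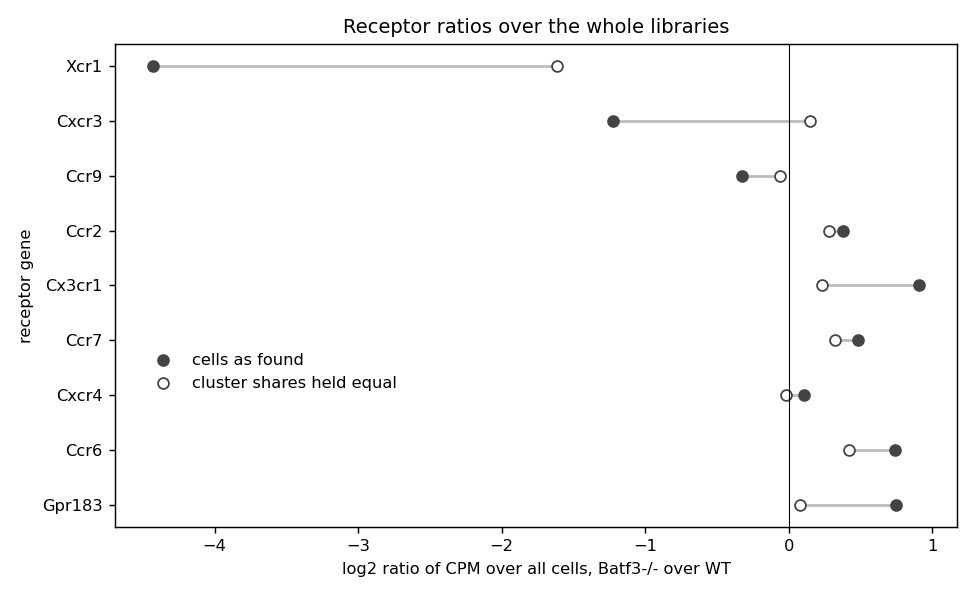
The log2 ratio of Batf3-/- over WT for each receptor over all cells, as counted and with the share of each cluster held equal in both libraries. Xcr1 moved from -4.43 to -1.61, Cxcr3 from -1.23 to 0.15, and Gpr183 from 0.74 to 0.08.

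The cells rarely showed several of the receptors at this depth. After thinning to 1000 UMIs, 36.1% of WT and 35.4% of Batf3-/- cells had a UMI of at least 1 of the 9 receptors, and 5.38% and 6.76% had at least 2 different ones. C1 had 16.7% and 17.03% of cells with at least 2. Thinning leaves out transcripts that a deeper count would find, and free RNA adds some, so these shares do not count the cells that carry the transcripts.

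The genes most like each receptor over the 17 clusters, among 7403 candidates, were named by Pearson's r of log2 levels, as a description with no test. For Xcr1 they were Gpr141b (0.98), Rab7b (0.97) and Gcsam (0.95), of which Gcsam had an r of -0.31 in the Batf3-/- library alone, and for Ccr7 they were Gadd45b (0.97), Dusp5 (0.97) and Ankrd33b (0.94). Gpr183 was followed by St8sia1 (0.92), Rem1 (0.90) and Cadm3 (0.88), Ccr6 by 2900052N01Rik (0.93), Dscam (0.91) and Dnmt3a (0.91), and Ccr9 by Cd300c (0.92), Rab33b (0.92) and Ly6a (0.88). Cx3cr1 had Ly6i (0.91), Tusc1 (0.90) and Csf1r (0.89), and Cxcr3 had Arid3b (0.88), Coro7 (0.87) and Tmem214 (0.83). Ccr2 and Cxcr4 had looser neighbors, Capn2 (0.85), Rasa3 (0.84) and Trf (0.84) for Ccr2, and Dusp1 (0.76), Atf4 (0.75) and Kdm6b (0.74) for Cxcr4. In the Batf3-/- library alone, all but Gcsam had an r of 0.52 or more.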

How the data were processed

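Pooled spleen DCs of each genotype were counted with 10x Genomics 3′ chemistry. Per the submitters' processing notes and the study's methods, the authors made reads with bcl2fastq 2.2.0, aligned and counted them with Cell Ranger against mm10, evened the depth of both libraries on aggregation, and analyzed them in Seurat 3.0.5. The deposited gene table holds raw counts of UMIs per gene and cell, the deposited normalized table holds natural log values and served only to check the order of 3568 rows, and the deposited cell table holds cluster numbers, phases, labels and mitochondrial fraction values as the authors made them. Antibody counts were not used, since their rows carry no names. No cell was removed, including 70 cells with under 1000 UMIs.

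Counts were summed per library and cluster and divided by the summed UMIs (CPM). Ratios have intervals from the binomial split of UMIs at a level of 95%. With 1 library per genotype there are no replicates, and cells are not replicates. The fixed filter was a mean of 10 CPM and 20 UMIs, and the fold 2. Cells were thinned to 1000 UMIs for shares (2000 as an alternative, 5000 for pairs within C6), leaving out shallower cells. All 9 receptors are named, for each the 3 genes most alike over 17 clusters with at least 100 cells, and from each further list at most the 6 highest genes that reach 10 CPM in a cluster. An item of those lists is not reported here. Receptors, lists and tests were chosen with earlier results of these data known. Doublets were scored with Scrublet in scanpy 1.11.5, which marked 438 WT cells but 1 Batf3-/- cell, so its calls were not used and no doublet was removed. Ratios were tested on simulated data with known folds. Alternatives were the mean of per-cell CPM, tables without mitochondrial and ribosomal protein genes, thinned cells, cycling cells only, and equal cluster shares. Work was done in Python 3.11.15 with numpy 2.4.6, pandas 2.3.3, scipy 1.17.1, anndata 0.12.19 and matplotlib 3.10.9.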

Additional observations from a re-analysis of the deposited data

Results flagged for a closer look

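Ccr7 differed between genotypes in opposite directions in different clusters. Its log2 ratio of Batf3-/- over WT was -2.39 in C14 and 1.31 in C15, and the difference between the clusters was not tested. In C14 it was -0.61 after thinning and -0.21 without the 5% of cells with the highest doublet score, both inside 2-fold. Both values rest on fewer UMIs and have no counting interval. The WT value of C14 rested on 9 cells with 89.5% of the Ccr7 UMIs, and the Batf3-/- value of C15 on 7 cells with 92.5%.

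Cx3cr1 did likewise, with a log2 ratio of 1.43 in C13 and -1.28 in C14, from 20 and 40 UMIs and from 29 and 8 UMIs in WT and Batf3-/-. This difference was not tested either. After thinning the log2 ratios were 0.31 in C13 and -0.98 in C14, both inside 2-fold. These 2 values rest on fewer UMIs than the full counts and have no counting interval.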

How the results depend on the processing

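No paired analysis was possible because each genotype had 1 library. The number of receptor values past 2-fold within clusters was 13, and it was 11 with the mean of per-cell CPM, 15 without mitochondrial and ribosomal protein genes, 18 after thinning, 9 with cycling cells only and 11 without the 5% of cells with the highest doublet score, an alternative chosen after seeing the data. A minimum of 50 CPM gave 5, and a fold of 1.5 gave 28. Shared with the 13 were 9, 13, 8, 4 and 7 values in the first 5 of these. The 18 values after thinning include some below the UMI minimum on the thinned counts. Among them, Ccr6 in C4 was found in 3 WT cells and 1 Batf3-/- cell. Cxcr3 in C4 was found in 91 thinned cells of WT and 91 of both libraries, so in no Batf3-/- cell. The 8 shared values after thinning include Xcr1 in C13, C14 and C15, which had no finite ratio. Over all cells, 2 receptors were past 2-fold, and 1 was with the mean of per-cell CPM, after thinning, with cycling cells only and with equal cluster shares. In the first and second of these Cxcr3 had log2 ratios of -1.08 and -1.37 but missed the minimum level. The log2 ratio of Cxcr3 over all cells was reversed by equal cluster shares, from -1.23 to 0.15. The latter has no counting interval and rests in part on the 31 Batf3-/- cells of C4. Of 122 alternative values for 26 ratios, 82 were within the counting interval, 39 lay outside it and 1, of a ratio past 2-fold, was reversed. Alternatives with no UMI in 1 library have no finite ratio and are not among the 122. These include Xcr1 in C13, C14 and C15 after thinning. Among the 39, Cxcr4 over all cells also changed sign, from 0.10 to -0.02, with equal cluster shares. In C6 the range over the alternatives was -3.26 to -2.75 for Xcr1, 0.84 to 1.01 for Ccr2 and 1.23 to 1.69 for Gpr183. Ccr7 in C14 was -0.61 after thinning and -0.21 without the highest doublet scores, Xcr1 in C12 was -0.15 after thinning and Cx3cr1 in C13 was 0.31. The cause of these shifts was not tested. Thinned ratios rest on fewer UMIs than the full counts and have no counting interval. C12 gave no value without the highest doublet scores, nor did C4, C12, C14 and C15 with cycling cells only, since under 30 Batf3-/- cells were left, and the 9 values of the 13 lost with cycling cells only lie in these clusters. The highest cluster by CPM was kept for 9 of 9 receptors with the mean of per-cell CPM, without mitochondrial and ribosomal protein genes and without the highest doublet scores. In Batf3-/- alone Cxcr3 was highest in C4 (48.9 CPM, 23 UMIs) and not in C13 (44.3 CPM, 51 UMIs). That order was not tested against counting error. The cluster with the largest share of cells was the one highest by CPM for 8 receptors at 1000 UMIs, 9 at 2000 UMIs and 7 without thinning. Of the 27 most alike genes, 9 were kept with Spearman's rho, 16 in WT alone and 9 in Batf3-/- alone. Ratios without called doublets were not computed, since the caller marked 1 Batf3-/- cell.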

Other observations

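Of 16 further chemokine and atypical receptors, 14 were in the count tables and 10 reached 10 CPM in a cluster. Ccrl2, an atypical receptor, was highest in C8 at 348 CPM, Cxcr6, known from tissue-resident lymphocytes, in C13 at 74.0 CPM, Ccr1 in C3 at 50.2 CPM, the scavenging receptor Ackr3 in C16 at 47.9 CPM and Ccr3 in C11 at 35.6 CPM. In C6, Ccrl2 was past 2-fold higher in Batf3-/-, at 5.95 CPM in WT and 15.5 CPM in Batf3-/- (log2 ratio 1.38). In C13 Cxcr6 was at 103 CPM in WT and 34.7 CPM in Batf3-/- (-1.57). The T and ILC markers of C13 summed to 921 and 407 CPM in WT and 589 and 327 CPM in Batf3-/-, and their part was not tested. Ccr10 in C13 (-2.11) and Cxcr2 in C15 (-3.56) were also lower and are named after their values were seen.

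Of 13 ligands of the 9 receptors, 11 were in the tables and 5 reached 10 CPM in a cluster. Xcl1, the ligand of Xcr1, was highest in C13 at 634 CPM, and Cxcl9, a ligand of Cxcr3, in C4 at 608.5 CPM, where Cxcr3 was also present. Cxcl10 was highest in C2 at 111 CPM, Ccl2 in C15 at 20.9 CPM and Ccl25 in the shallow cells of C9 at 19.9 CPM. All 5 sphingosine phosphate receptors, which guide exit from lymphoid tissue, were in the tables and 4 reached 10 CPM, with S1pr5 highest in C15 at 83.4 CPM, S1pr1 and S1pr4 in C13 at 56.6 and 55.9 CPM and S1pr2 in C15 at 17.1 CPM. Of 3 oxysterol enzymes that make or break down the Gpr183 ligand, Cyp7b1 reached 38.3 CPM in C3. All 10 signalling genes met the minimum in C6 and 0 were past 2-fold, where 4.12% of all genes were. Their median log2 ratio there was 0.28, against 0.01 over the 7045 genes of C6. Rgs1, a regulator of G protein signalling, was highest in C9 at 1860 CPM, in shallow cells with a median of 1478.5 UMIs.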
